A study of Homo sapiens with 6 samples.

Results

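The genes described here are 42 genes of the endoplasmic reticulum (ER): the chaperones and isomerases of its lumen, the protein-conducting channel (translocon) with its partner complexes, and the machinery of ER-associated degradation. They were taken by gene symbol from the deposited table, which holds 36884 genes. All 42 were found, each with 1 row, and all 42 passed the filter on low counts, among 13431 genes tested. RNA was sequenced from RPE1, an untransformed human cell line from the retinal pigment epithelium that was immortalized with telomerase, and every library came from cells in which LATS1 and LATS2, the kinases that restrain YAP and TAZ, had been inactivated with CRISPR-Cas9. The siMK5 group received siRNA against the protein kinase MK5, encoded by MAPKAPK5, and the siCon group received control siRNA. Each group held 3 libraries, described as biological replicates and made 48 h after transfection. Whether the edited line is a single clone is not given in the sources used here, and a group with LATS kinases was not part of the comparison.

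The libraries held 27188074 to 28236773 counts. MAPKAPK5 (ENSG00000089022), the siRNA target, stood at 17.4, 14.1 and 16.2 CPM in siMK5 libraries 1, 2 and 3 and at 35.6, 29.05 and 31.3 CPM in siCon libraries 1, 2 and 3 (log2 fold change −1.01 ± 0.14, edgeR adjusted p = 0.00169). Levels are given as CPM, the gene's count relative to a library total scaled by TMM. Of the epithelial markers, KRT8 and KRT18 were abundant, at 363 ± 93.01 CPM and 88.7 ± 12.6 CPM in siMK5 libraries and 642 ± 38.3 CPM and 148 ± 5.82 CPM in siCon libraries (SD, n = 3 each), while EPCAM had no count and CDH1 was below 1 CPM. The summed level of the 5 epithelial markers was 387 to 573 CPM in siMK5 libraries and 753 to 827 CPM in siCon libraries, and KRT8 and KRT18 fell (edgeR adjusted p = 0.0104 and 0.00363). Of 7 markers of retinal pigment epithelium, OTX2 was present at 34.8 ± 0.919 CPM in siMK5 and 32.4 ± 2.61 CPM in siCon. MITF and PMEL fell (−1.09 and −1.89, edgeR adjusted p = 0.00114 and 0.00189). PMEL was low in both groups, at 0.546 ± 0.0938 CPM in siMK5 and 2.04 ± 0.323 CPM in siCon. RPE65, RLBP1 and TYR, which mark the differentiated tissue, were below 1 CPM in both groups. BEST1 was also below 1 CPM and did not pass (0.01, edgeR adjusted p = 0.984). The sum of the 7 markers was 58.2 to 66.1 CPM in siMK5 libraries and 83.3 to 95.1 CPM in siCon libraries. The summed level of 6 markers of other cells was 145 to 318 CPM in siMK5 libraries and 49.6 to 93.04 CPM in siCon libraries. Nearly all of it was COL1A1, a collagen gene, which rose by 1.83 ± 0.35 on the log2 scale (edgeR adjusted p = 0.00605), and ACTA2. PECAM1 and HBB had no count, and PTPRC and CDH5 were below 1 CPM. The part of these markers in the results below was not tested.

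Proteins that enter the secretory pathway cross the ER membrane through the SEC61 channel, lose their signal peptide to signal peptidase, and fold with the help of the Hsp70 chaperone BiP, its J-domain cochaperones, lectin chaperones that read N-glycans, and protein disulfide isomerases. Proteins that fail to fold are returned to the cytosol through the SEL1L and HRD1 ubiquitin ligase complex and degraded by the proteasome. When unfolded proteins accumulate, the sensors IRE1, PERK and ATF6 induce many of these genes, a program called the unfolded protein response. ATF6 and XBP1 act on promoters that hold the ER stress response element (ERSE) or its short form ERSE-II.

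Most of these genes were higher after MK5 siRNA. Of the 42, 26 rose, 3 fell and 13 did not pass (edgeR's quasi-likelihood fit, p adjusted by Benjamini-Hochberg over all genes tested, threshold 0.05). Of all 13431 genes tested, 22.5% rose and 23.7% fell. A total of 12 members rose by at least 2-fold, as did 10.8% of all genes tested, and no member fell by 2-fold, as did 11.5% of all genes. The median log2 fold change, siMK5 over siCon, was 0.78 over the members and 0.00 over all genes tested. In 29 members every siMK5 library lay above every siCon library, and in 4 every siMK5 library lay below; these shares were 30.6% and 29.8% of all genes. Together the 42 genes took 1.41 to 1.72% of the counts in the siMK5 libraries and 0.883 to 0.938% in the siCon libraries. Without replicate 1 of both groups, whose libraries stood apart from replicates 2 and 3, 33 members rose and 4 fell. Of the 13690 genes tested in that fit, 5195 rose and 5177 fell, larger shares than with all libraries. Without siCon replicate 1 alone, 4455 genes rose and 4419 fell, of 13774 tested. Such fits take a group's spread from replicates 2 and 3 alone, which lay closer to each other than to replicate 1. In bulk RNA, a change in the share of cells that express a gene cannot be told apart from a change per cell.

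**Figure D1:**
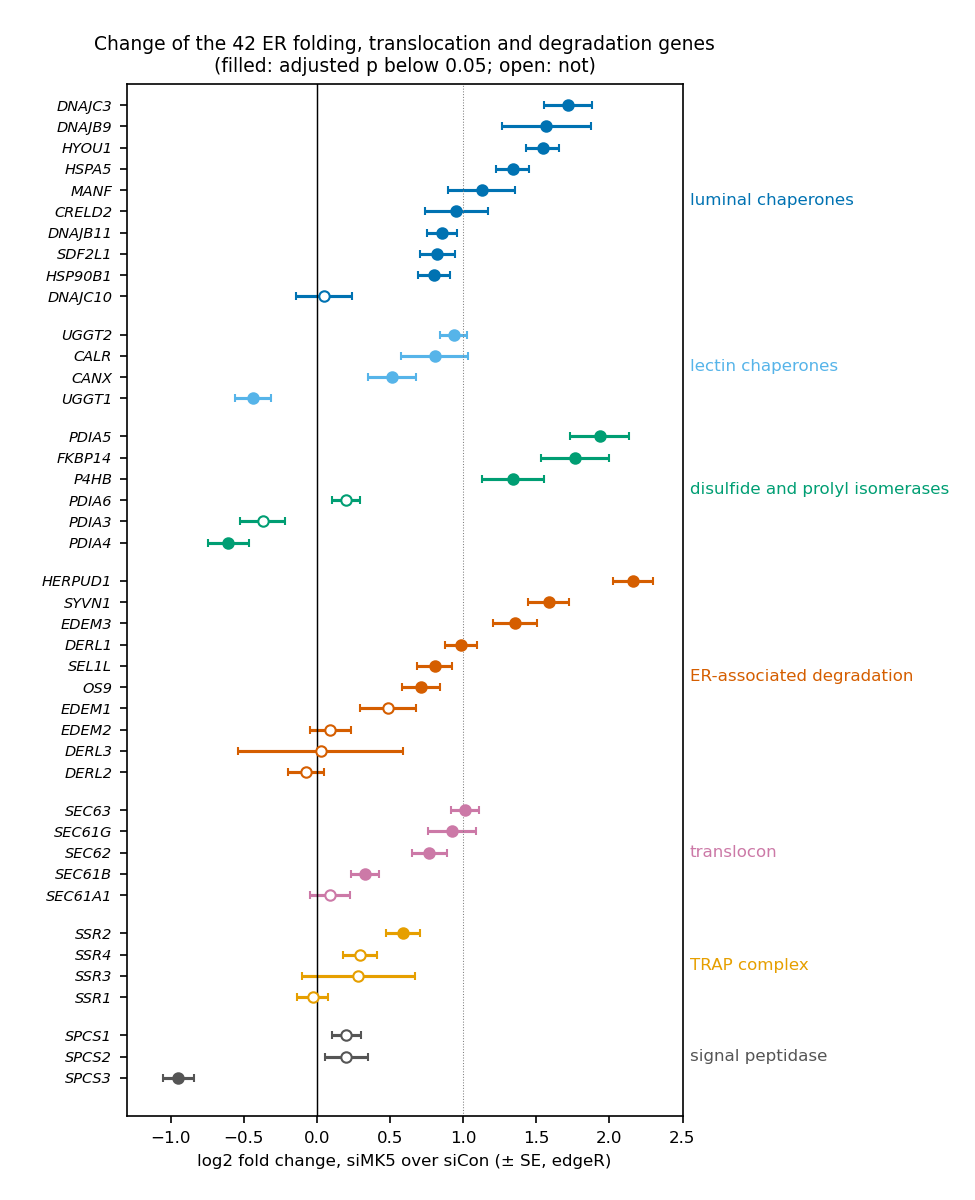
Log2 fold change (siMK5 over siCon, horizontal axis) of each of the 42 genes, ordered within roles, with bars for the standard error of edgeR's fit (n = 3 libraries per group). Filled points passed at adjusted p below 0.05; HERPUD1 lies highest at 2.16 and SPCS3 lowest at −0.95, and the dotted line marks a 2-fold rise.

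The promoters of the members that carry the response elements are shown because they place the changes below beside known regulatory letters. Promoter windows (RefSeq, GRCh38.p14, 250 bases before to 50 after the annotated start) were found for 37 of the 42 genes, in 46 windows, and not for SPCS1, PDIA3, FKBP14, DERL1 and DERL3. Both strands were searched for ERSE (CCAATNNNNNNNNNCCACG), ERSE-II (ATTGGNCCACG), the core of the XBP1 element UPRE (TGACGTGG) and the core of the amino acid response element CARE, bound by ATF4 and CHOP (TGATGNAA). The sequences read 5′ to 3′ on the gene's strand, with motif letters in capitals; a motif on the opposite strand reads as its reverse complement, such as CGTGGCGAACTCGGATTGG. HSPA5 (chr9:125241294-125241593, minus strand) held 1 ERSE, and HERPUD1 (chr16:56931892-56932191, plus strand) held a CARE core on the opposite strand and an ERSE-II. HYOU1 (chr11:119057156-119057455, minus strand) held 2 ERSE-II, the first of which shares 5 bases with a UPRE core.
HSPA5: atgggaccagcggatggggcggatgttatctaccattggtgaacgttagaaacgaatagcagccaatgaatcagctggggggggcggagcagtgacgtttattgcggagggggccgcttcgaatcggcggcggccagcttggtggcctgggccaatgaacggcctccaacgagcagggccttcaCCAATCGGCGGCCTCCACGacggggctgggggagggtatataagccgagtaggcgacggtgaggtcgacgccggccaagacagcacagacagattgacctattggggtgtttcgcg
HERPUD1: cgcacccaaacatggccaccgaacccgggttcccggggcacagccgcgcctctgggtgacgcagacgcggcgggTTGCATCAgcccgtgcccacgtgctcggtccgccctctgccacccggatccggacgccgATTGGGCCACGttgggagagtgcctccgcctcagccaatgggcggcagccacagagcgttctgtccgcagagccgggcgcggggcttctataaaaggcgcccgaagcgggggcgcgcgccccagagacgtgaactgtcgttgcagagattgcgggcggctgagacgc
HYOU1: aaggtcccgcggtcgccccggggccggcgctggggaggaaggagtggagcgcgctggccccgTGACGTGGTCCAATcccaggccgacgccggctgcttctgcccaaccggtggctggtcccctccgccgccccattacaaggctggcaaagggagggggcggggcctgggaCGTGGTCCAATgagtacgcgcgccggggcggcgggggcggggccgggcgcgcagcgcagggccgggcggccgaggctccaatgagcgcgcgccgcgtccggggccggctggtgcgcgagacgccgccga

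In 6 further members an ERSE or ERSE-II is shown with 20 bases on each side. The stretches lie at chr12:103930196-103930254, plus strand, and chr12:103930301-103930359, plus strand (HSP90B1, 2 ERSE), chr19:12938364-12938422, plus strand (CALR), chr5:179698758-179698816, plus strand (CANX, present in 3 of its 4 windows), chr22:49918534-49918592, plus strand (CRELD2), chr2:10812833-10812891, minus strand (PDIA6, 1 of its 2 windows) and chr22:21642094-21642144, plus strand (SDF2L1, ERSE-II).
HSP90B1, upstream copy: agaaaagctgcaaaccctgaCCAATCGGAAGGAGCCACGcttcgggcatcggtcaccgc
HSP90B1, downstream copy: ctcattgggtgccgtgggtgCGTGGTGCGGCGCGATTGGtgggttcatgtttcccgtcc
CALR: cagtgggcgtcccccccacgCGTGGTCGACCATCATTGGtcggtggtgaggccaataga
CANX: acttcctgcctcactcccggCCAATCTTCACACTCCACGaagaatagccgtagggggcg
CRELD2: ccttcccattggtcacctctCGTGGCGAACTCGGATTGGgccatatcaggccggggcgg
PDIA6: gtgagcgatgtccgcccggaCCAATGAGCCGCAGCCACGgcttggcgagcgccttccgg
SDF2L1: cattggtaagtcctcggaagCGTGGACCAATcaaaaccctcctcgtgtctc

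ERSE was present in 6 of the 37 member genes (16.2%) and in 25 of 27305 genes with a window (0.0916%), and ERSE-II in 3 members (8.11%) and 19 of all genes (0.0696%). The UPRE core was in 5 members (13.5%), namely HYOU1, DNAJC10, SEC62, SSR3 and SSR4, and in 0.927% of all genes. Of these 5, HYOU1 and SEC62 rose and the other 3 did not pass (median log2 fold change 0.30). The CARE core was in 1 member (2.70%) and 4.46% of all genes. Of the 9 members with ERSE or ERSE-II, 8 rose and PDIA6 did not pass, with a median log2 fold change of 0.82, beside 0.80 over all 37 members with a window, of which 24 rose. The 3 members that fell, SPCS3, PDIA4 and UGGT1, held none of the 4 motifs in these windows. Any of the 4 motifs was in 13 of the 37 members, and 9 of these rose, beside 24 rises among all 37. Most members that rose thus held none of them either. Outside the members, 10 tested genes held an ERSE, of which 5 rose and 1 (SYNPO) fell, and 122 held a UPRE core, of which 62 rose (50.8%) and 18 fell. ERSE-II was in 11 tested genes outside the members, of which 1 (CNKSR1) rose and 2 (PLS3 and SHCBP1) fell, and the CARE core in 300, of which 84 rose and 71 fell. Among all 10550 tested non-members with a window, 22.4% rose. All non-members named with these motifs were chosen after their values were seen. The 5 that rose with an ERSE were XBP1 (2.09), FICD (1.69), whose product modifies BiP, EIF2A (0.80), SERP1 (0.63), a translocon-associated protein, and ALG12 (0.42), a mannosyltransferase whose start lies beside that of CRELD2. ERO1B (0.95), ZNF17 (0.77), TMEM120A (−0.28) and TRIM5 (−0.35) held an ERSE and did not pass. A match is a description of letters and says nothing of binding in these cells.

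Among the 10 luminal chaperones and their helpers, 9 rose, none fell and DNAJC10 did not pass, with a median log2 fold change of 1.04. HSPA5 (ENSG00000044574) encodes BiP, the central Hsp70 of the lumen, which also keeps the stress sensors inactive. It stood at 2046, 2177 and 2416 CPM in siMK5 libraries 1, 2 and 3, against 846, 923 and 854 CPM in siCon libraries 1, 2 and 3. The groups were far apart, and the mean was 2.53-fold higher in siMK5 (log2 fold change 1.34 ± 0.11, edgeR adjusted p = 0.000331). HYOU1 (ENSG00000149428), the large Hsp70-like protein that exchanges nucleotide on BiP, was at 499, 497 and 523 CPM in siMK5 and 196, 159.7 and 166 CPM in siCon (log2 fold change 1.54 ± 0.12, edgeR adjusted p = 0.000247). Its siMK5 libraries lay within a few percent of each other, and siCon replicate 1 was the highest control. HSP90B1, the ER paralog of Hsp90 (GRP94), was the most counted member of this role, at 2158, 2420 and 2567 CPM in siMK5 against 1404, 1379 and 1327 CPM in siCon (log2 fold change 0.80 ± 0.11, edgeR adjusted p = 0.00166).

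The J-domain proteins, which pass clients to BiP, changed to different extents. DNAJC3 (ENSG00000102580), which encodes the cochaperone P58IPK, reached 50.5, 59.95 and 62.2 CPM in siMK5, against 14.3, 20.3 and 17.9 CPM in siCon (log2 fold change 1.72 ± 0.16, edgeR adjusted p = 0.000489). DNAJB9 (ERdj4) was at 52.4, 42.8 and 43.9 CPM in siMK5 and 23.8, 10.9 and 12.1 CPM in siCon (log2 fold change 1.57 ± 0.30, edgeR adjusted p = 0.00593). In both genes every siMK5 library exceeded every siCon library, although siCon replicate 1 of DNAJB9 was about double the other controls. DNAJB11 (ERdj3) was at 112, 112 and 123 CPM in siMK5 and 68.7, 60.8 and 62.1 CPM in siCon (log2 fold change 0.85 ± 0.10, edgeR adjusted p = 0.00104). SDF2L1, its partner, was at 28.7, 25.5 and 27.8 CPM in siMK5 and 16.1, 14.2 and 15.98 CPM in siCon (log2 fold change 0.82 ± 0.12, edgeR adjusted p = 0.00207). The 2 partners rose by similar amounts, with groups apart in both. DNAJC10 (ERdj5), a disulfide reductase with a J domain that acts in degradation, was at 143, 179 and 193 CPM in siMK5 and 125, 187 and 187 CPM in siCon, with overlapping groups (log2 fold change 0.05 ± 0.19, edgeR adjusted p = 0.856). MANF, a secreted protein that binds BiP, was at 112, 119.7 and 127 CPM in siMK5 and 75.9, 45.8 and 42.5 CPM in siCon (log2 fold change 1.13 ± 0.23, edgeR adjusted p = 0.00697). CRELD2, a small ER protein with EGF-like repeats, was at 38.9, 46.98 and 49.1 CPM in siMK5 and 16.2, 26.3 and 27.1 CPM in siCon (log2 fold change 0.95 ± 0.22, edgeR adjusted p = 0.0110). For these last 2 genes siCon replicate 1 deviated from the other controls in opposite directions, high for MANF and low for CRELD2, and the groups did not overlap in either.

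Of the 4 genes of the calnexin and calreticulin cycle, 3 rose and 1 fell. CALR (ENSG00000179218), the soluble lectin chaperone, was at 1575, 2012 and 2154 CPM in siMK5 and 753, 1239 and 1295 CPM in siCon (log2 fold change 0.80 ± 0.23, edgeR adjusted p = 0.0264). It did not pass without siMK5 replicate 2 (edgeR adjusted p = 0.0801) or siMK5 replicate 3 (edgeR adjusted p = 0.0881). CANX, its membrane-bound relative, was at 933, 1192 and 1189 CPM in siMK5 and 924, 719 and 680.3 CPM in siCon (log2 fold change 0.51 ± 0.16, edgeR adjusted p = 0.0381). The lowest siMK5 library of CANX was barely above the highest siCon library. CANX did not pass with the replicate number as a block (edgeR adjusted p = 0.0802), without a filter on low counts (edgeR adjusted p = 0.0504), or when replicate 2 or 3 of either group was left out (edgeR adjusted p from 0.124 to 0.146).

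The 2 glucosyltransferases that return misfolded glycoproteins to the lectins moved in opposite directions. UGGT1 was at 105, 135 and 132 CPM in siMK5 and 171, 169 and 164 CPM in siCon (log2 fold change −0.44 ± 0.12, edgeR adjusted p = 0.0249), whereas UGGT2 was at 71.9, 68.9 and 71.2 CPM in siMK5 and 38.01, 36.5 and 36.4 CPM in siCon (log2 fold change 0.93 ± 0.09, edgeR adjusted p = 0.000553). The groups did not overlap in either gene. UGGT2 had 0.685, 0.509 and 0.538 counts per count of UGGT1 in siMK5 libraries 1, 2 and 3, and 0.222, 0.216 and 0.222 in siCon libraries 1, 2 and 3. The fall of UGGT1 did not pass when replicate 2 or 3 of either group was left out (edgeR adjusted p from 0.0530 to 0.0659).

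**Figure D2:**
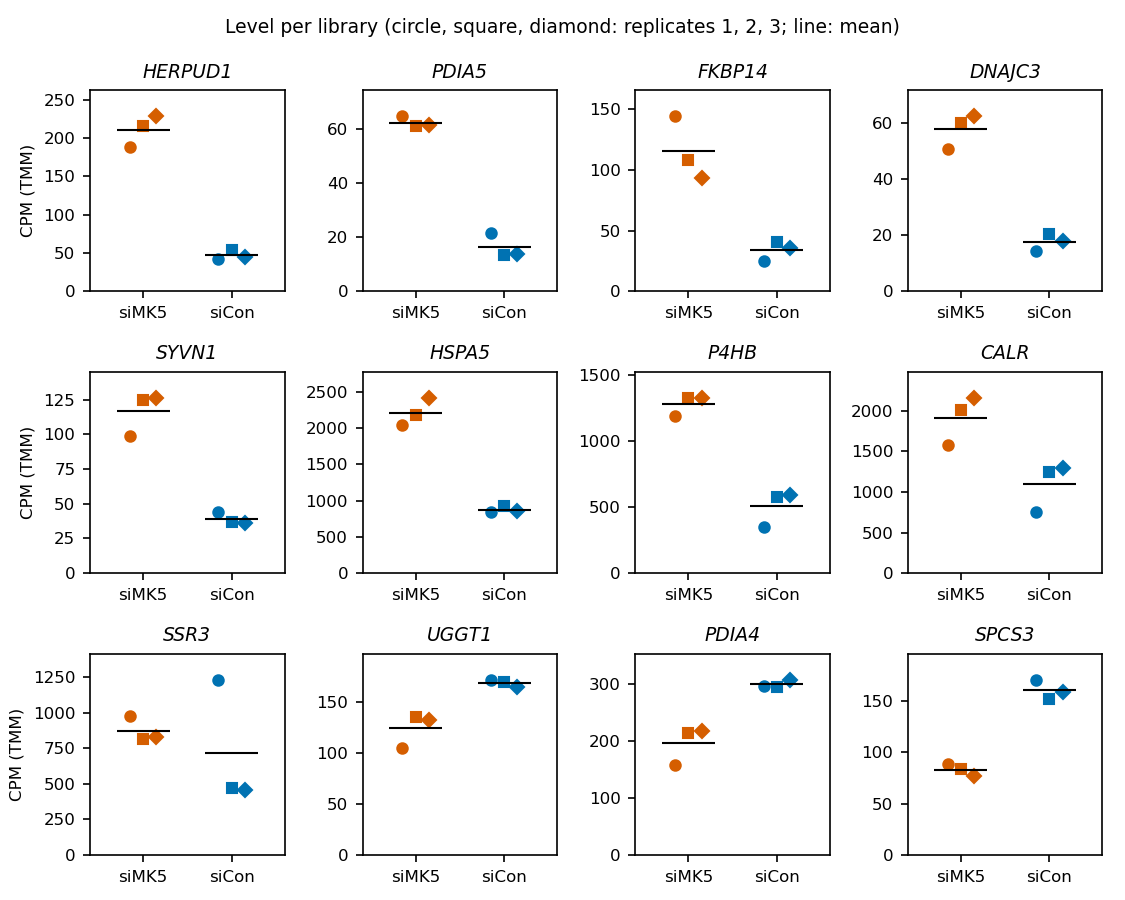
Level in CPM (vertical axis, from 0) of 12 members in each library, siMK5 left and siCon right, with a line at each group's mean (n = 3). HERPUD1, PDIA5, FKBP14, DNAJC3, SYVN1, HSPA5, P4HB and CALR lie higher in every siMK5 library, UGGT1, PDIA4 and SPCS3 lower, and SSR3 overlaps because siCon replicate 1 lies at 1232 CPM.

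The disulfide isomerases, which form and reshuffle disulfide bonds, and the prolyl isomerase FKBP14 made up 6 members, of which 3 rose, 1 fell and 2 did not pass. PDIA5 (ENSG00000065485) was at 64.6, 60.9 and 61.3 CPM in siMK5, against 21.6, 13.5 and 13.7 CPM in siCon (log2 fold change 1.93 ± 0.20, edgeR adjusted p = 0.000649). P4HB, the founding protein disulfide isomerase and also the beta subunit of collagen prolyl 4-hydroxylase, was at 1189, 1321 and 1323 CPM in siMK5 and 345, 575 and 593 CPM in siCon (log2 fold change 1.34 ± 0.21, edgeR adjusted p = 0.00278). In P4HB siCon replicate 1 was the lowest library of all. PDIA6 was at 339.6, 318 and 332 CPM in siMK5 and 273, 291 and 298 CPM in siCon, a small and separate shift that did not pass (log2 fold change 0.20 ± 0.09, edgeR adjusted p = 0.122).

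PDIA4 (ERp72) was at 159, 215 and 218 CPM in siMK5, against 296, 295 and 308 CPM in siCon, and fell (log2 fold change −0.61 ± 0.14, edgeR adjusted p = 0.0125). PDIA3 (ERp57), which works with calnexin and calreticulin on glycoproteins, was at 375, 487 and 494 CPM in siMK5 and 502, 645 and 608 CPM in siCon. Every siMK5 library of PDIA3 lay below every siCon library, but the difference did not pass (log2 fold change −0.37 ± 0.15, edgeR adjusted p = 0.0871). It passed with the replicate number as a block (−0.37, edgeR adjusted p = 0.0243) and without siCon replicate 1 (−0.46, edgeR adjusted p = 0.0121). FKBP14, which acts on collagen, was at 144, 108 and 93.3 CPM in siMK5 and 25.3, 40.3 and 36.1 CPM in siCon (log2 fold change 1.76 ± 0.23, edgeR adjusted p = 0.00139). Replicate 1 of FKBP14 was the highest siMK5 library and the lowest siCon library, which also held for COL1A1 (294, 144 and 131 CPM in siMK5 against 39.7, 67.7 and 53.1 CPM in siCon), whose part in the result was not tested.

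Degradation genes rose in 6 of 10 cases and none fell. HERPUD1 (ENSG00000051108), a membrane protein that assembles the ligase complex, showed the largest change of all 42 genes, at 188, 216 and 228 CPM in siMK5 against 42.7, 53.5 and 44.9 CPM in siCon (log2 fold change 2.16 ± 0.14, edgeR adjusted p = 0.000209). SYVN1, the ubiquitin ligase HRD1, was at 98.99, 125 and 126 CPM in siMK5 and 43.8, 36.8 and 36.2 CPM in siCon (log2 fold change 1.58 ± 0.14, edgeR adjusted p = 0.000419). SEL1L, the adaptor that holds HRD1 in the complex, was at 199, 210.4 and 222 CPM in siMK5 and 108, 135 and 119 CPM in siCon (log2 fold change 0.81 ± 0.12, edgeR adjusted p = 0.00208). All 3 core genes of the complex were thus higher in every siMK5 library, and SEL1L had 2.01, 1.68 and 1.76 counts per count of SYVN1 in siMK5, against 2.46, 3.67 and 3.28 in siCon. OS9, the lectin that delivers glycoproteins to SEL1L, was at 248, 259.9 and 248 CPM in siMK5 and 129, 165 and 168 CPM in siCon (log2 fold change 0.71 ± 0.13, edgeR adjusted p = 0.00452). DERL1, a rhomboid-like protein of the retrotranslocation path, was at 115, 127 and 138 CPM in siMK5 and 67.9, 62.7 and 61.6 CPM in siCon (log2 fold change 0.99 ± 0.11, edgeR adjusted p = 0.000805). The siMK5 libraries of both genes lay above all siCon libraries.

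The 3 EDEM genes, whose products trim mannose from misfolded glycoproteins, differed. EDEM3 was at 101, 88.1 and 85.04 CPM in siMK5 and 42.3, 34.02 and 30.8 CPM in siCon (log2 fold change 1.35 ± 0.15, edgeR adjusted p = 0.000791). EDEM1 was at 137, 162 and 166 CPM in siMK5 and 144, 95.99 and 92.1 CPM in siCon, where replicate 1 stood apart from the other 2 controls. It did not pass (log2 fold change 0.49 ± 0.19, edgeR adjusted p = 0.0774), but passed without siCon replicate 1 (0.73, edgeR adjusted p = 0.000456). The control spread then came from replicates 2 and 3 alone. EDEM2 was at 42.98, 45.00 and 46.8 CPM in siMK5 and 34.6, 44.1 and 47.7 CPM in siCon (log2 fold change 0.09 ± 0.14, edgeR adjusted p = 0.618). DERL2, a relative of DERL1, was at 30.9, 37.2 and 38.8 CPM in siMK5 and 37.7, 36.8 and 38.1 CPM in siCon (log2 fold change −0.08 ± 0.12, edgeR adjusted p = 0.637). The groups overlapped in both genes. DERL3 was below 1 CPM in all 6 libraries. On GRCh38 87.3% of the exon bases of DERL3 overlap SMARCB1 on the opposite strand, so its reads are uncertain.

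Among the 5 genes of the translocon, 4 rose and none fell. SEC61A1, which encodes the channel pore, was at 488, 611 and 639 CPM in siMK5 and 498, 549 and 585 CPM in siCon, with overlapping groups (log2 fold change 0.09 ± 0.14, edgeR adjusted p = 0.610). SEC61G, the gamma subunit, was at 89.4, 97.9 and 106 CPM in siMK5 and 63.8, 44.8 and 45.9 CPM in siCon (log2 fold change 0.93 ± 0.16, edgeR adjusted p = 0.00429). SEC61B, the beta subunit, was at 83.1, 82.1 and 88.7 CPM in siMK5 and 64.4, 67.1 and 70.9 CPM in siCon (log2 fold change 0.33 ± 0.10, edgeR adjusted p = 0.0287). Both small subunits thus rose, SEC61B by the smaller step. SEC61B did not pass without a filter on low counts, nor when any library other than siCon replicate 1 was left out (edgeR adjusted p from 0.0540 to 0.122). SEC63, a J-domain membrane protein that brings BiP to the channel, was at 218, 227 and 237 CPM in siMK5, against 111, 119 and 108 CPM in siCon (log2 fold change 1.01 ± 0.10, edgeR adjusted p = 0.000488). SEC62, its partner in post-translational import, was at 194, 184 and 177 CPM in siMK5 and 124, 102 and 100.1 CPM in siCon (log2 fold change 0.77 ± 0.12, edgeR adjusted p = 0.00249). SEC63 had 0.447, 0.371 and 0.371 counts per count of SEC61A1 in siMK5 libraries, and 0.223, 0.217 and 0.185 in siCon libraries.

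The translocon-associated protein (TRAP) complex, a tetramer beside the channel that assists some signal peptides, gave 1 rise and no fall in 4 genes. SSR2, its beta subunit, was at 304, 279 and 284 CPM in siMK5 and 169, 197 and 209.9 CPM in siCon (log2 fold change 0.59 ± 0.11, edgeR adjusted p = 0.00616). SSR1, the alpha subunit, was at 119, 140.0 and 138 CPM in siMK5 and 142, 134 and 130.1 CPM in siCon, with overlapping groups (log2 fold change −0.03 ± 0.11, edgeR adjusted p = 0.850). SSR4, the delta subunit, was at 104, 101 and 107 CPM in siMK5 and 74.2, 86.2 and 94.04 CPM in siCon and did not pass (log2 fold change 0.30 ± 0.12, edgeR adjusted p = 0.0748), although its groups were apart. SSR4 passed without siCon replicate 1 (0.21, edgeR adjusted p = 0.0354). SSR3, the gamma subunit, was at 976, 819 and 833 CPM in siMK5 and 1232, 469 and 458 CPM in siCon (log2 fold change 0.28 ± 0.38, edgeR adjusted p = 0.574). With siCon replicate 1 left out, SSR3 rose by 0.92 (edgeR adjusted p = 0.000105), so that this library decided its call.

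Of the 3 signal peptidase genes, none rose, 1 fell and 2 did not pass. SPCS3, whose yeast counterpart is required for the enzyme's activity, was at 88.99, 83.6 and 76.8 CPM in siMK5, against 170.3, 151 and 159 CPM in siCon, and fell (log2 fold change −0.95 ± 0.11, edgeR adjusted p = 0.000818). SPCS1, an accessory subunit, was at 75.3, 77.4 and 86.3 CPM in siMK5 and 68.8, 68.4 and 70.6 CPM in siCon, apart but not passing (log2 fold change 0.20 ± 0.10, edgeR adjusted p = 0.135). SPCS2, another accessory subunit, was at 48.4, 44.6 and 42.8 CPM in siMK5 and 47.3, 35.2 and 35.6 CPM in siCon, with overlapping groups (log2 fold change 0.20 ± 0.15, edgeR adjusted p = 0.295). SPCS2 passed without siCon replicate 1 (0.36, edgeR adjusted p = 0.00688), with the control spread taken from replicates 2 and 3 alone. SPCS3 had 1.18, 1.08 and 0.890 counts per count of SPCS1 in siMK5 libraries, and 2.48, 2.21 and 2.25 in siCon libraries. Reads of SPCS1 are uncertain, since 60.5% of its exon bases overlap NEK4 on the opposite strand in GRCh38. Smaller overlaps of over 15% of exon bases with a coding gene on the opposite strand touch PDIA6 (29.7% of exon bases, ATP6V1C2), SSR4 (16.2%, IDH3G), PDIA3 (16.8%, ELL3, and 16.3%, AC018512.1) and DNAJB11 (15.9%, TBCCD1). DNAJB11 also overlaps a coding gene on its own strand (18.8%, AC068631.2).

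Per length of exon, the members spanned a wide range of levels. CALR led with 1006 ± 159 CPM per kb in siMK5 and 576 ± 157 CPM per kb in siCon (SD, n = 3 each). HSP90B1 (831 ± 72.2 in siMK5, 478 ± 13.6 in siCon), HSPA5 (566 ± 47.97 in siMK5, 224 ± 10.8 in siCon) and P4HB (490.3 ± 29.5 in siMK5, 194 ± 52.96 in siCon) followed, in the same order in both groups. In each group the intervals of 1 SD overlapped between CALR and HSP90B1 and between HSPA5 and P4HB. The lowest member apart from DERL3 was DNAJC10 in siMK5 (8.16 ± 1.23) and DNAJC3 in siCon (3.13 ± 0.538). In siMK5 DERL2 (8.38 ± 0.987) lay within 1 SD of DNAJC10, whose pooled exons were the longest of the members at 21040 bases. HERPUD1 stood at rank 16 of 42 in siMK5 and 26 in siCon, and SPCS3 at rank 31 in siMK5 and 18 in siCon. The exon lengths come from another annotation than the authors' and pool all basic transcripts of a gene.

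**Figure D3:**
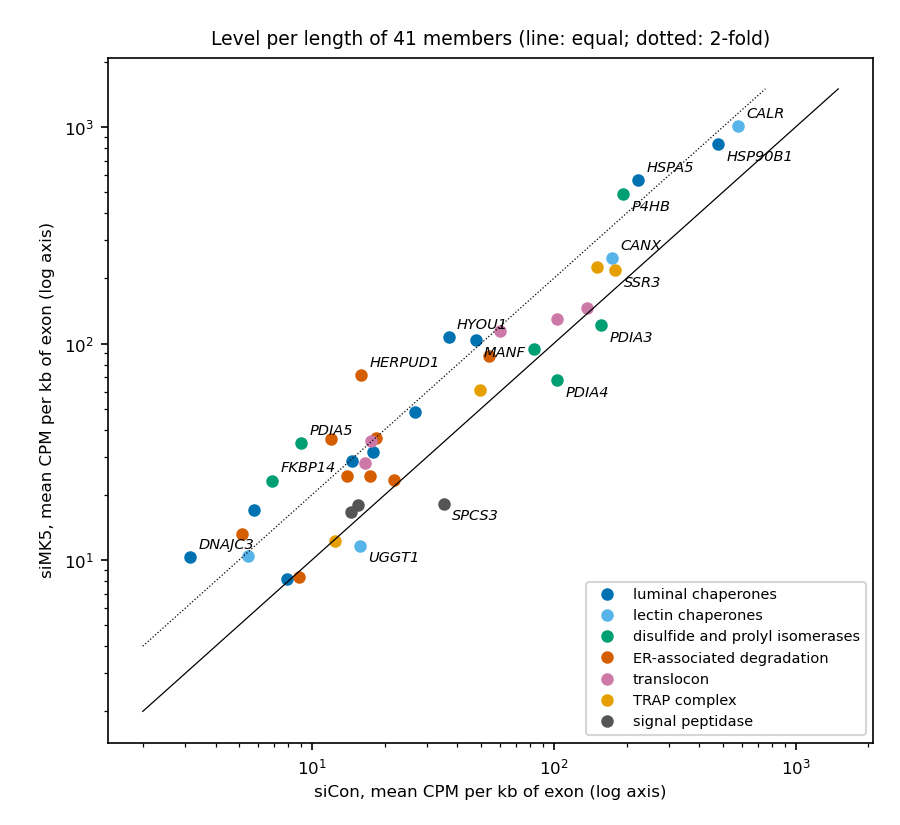
Mean CPM per kb of exon in siMK5 (vertical log axis) against siCon (horizontal log axis) for 41 members, DERL3 left out, coloured by role. The solid line marks equal levels and the dotted line a 2-fold higher level in siMK5; HERPUD1, PDIA5, FKBP14 and DNAJC3 lie above the dotted line, and PDIA4, UGGT1, SPCS3 and PDIA3 below the solid line.

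The size of the change differed between replicate numbers for some members. The median difference on log2(CPM + 0.5), siMK5 minus siCon, was 0.63, 0.78 and 0.83 in replicate numbers 1, 2 and 3, with 30 members positive and 4 negative in all 3, as were 37.4% and 36.2% of all genes tested. SSR3 gave −0.34 in replicate 1, against 0.80 and 0.86 in replicates 2 and 3. EDEM1 gave −0.07, 0.75 and 0.85, and MANF 0.55, 1.38 and 1.57 in replicates 1, 2 and 3. FKBP14 and P4HB differed the other way, with 2.49, 1.41 and 1.36 for FKBP14 and 1.78, 1.20 and 1.16 for P4HB. HSPA5 gave 1.27, 1.24 and 1.50, and HERPUD1 2.13, 2.00 and 2.33, so that these rises were of like size in each.

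**Figure D4:**
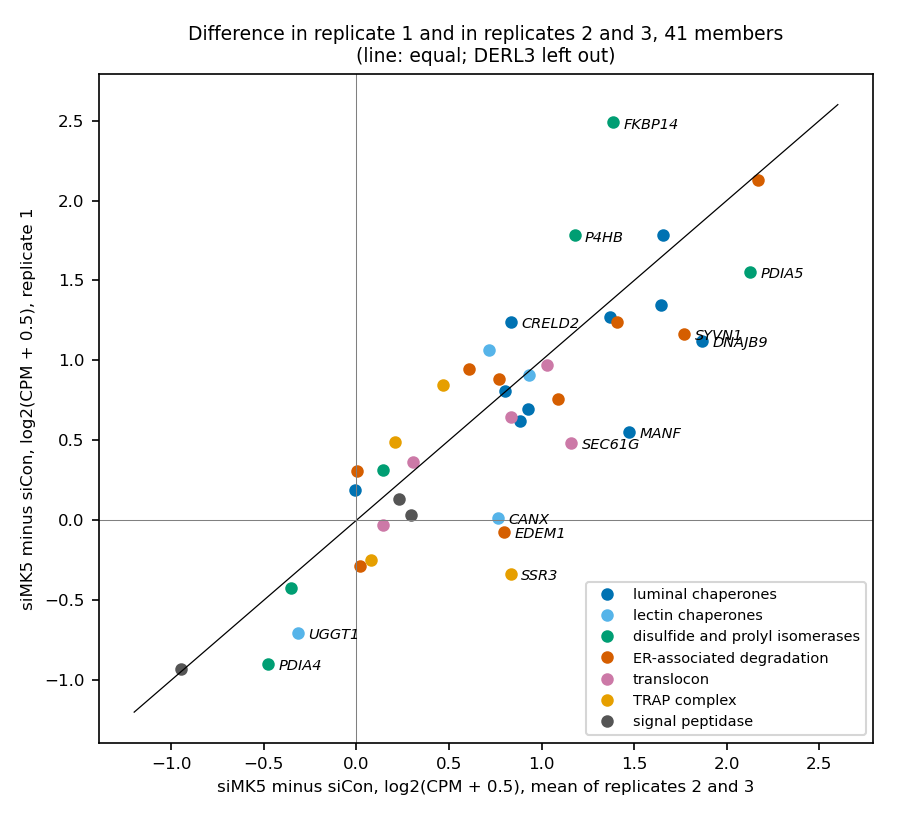
Difference siMK5 minus siCon on log2(CPM + 0.5) in replicate 1 (vertical axis) against the mean difference in replicates 2 and 3 (horizontal axis) for 41 members, DERL3 left out. SSR3, EDEM1, CANX and MANF lie below the line of equality, with SSR3 at −0.34 in replicate 1, and FKBP14 and P4HB lie above it.

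Other ER genes of the same pathway, from lists drawn up by role, were changed in both directions but more often upward. The lists were chosen with earlier results of these data known. Of 93 such genes, 92 were tested, 47 rose and 9 fell, with a median log2 fold change of 0.51. Of all genes tested, 22.5% rose and 23.7% fell. Among 14 other isomerases and cochaperones, 11 rose and 1 fell (median 1.01), led by DNAJC1 (1.85 ± 0.12), a J-domain protein of the ER membrane, and PPIC (1.68 ± 0.17), a cyclophilin, while DNAJB14, another membrane J-domain protein, fell (−0.78 ± 0.14). Of 13 other oxidoreductases tested, 7 rose and none fell (median 0.43), with TXNDC11 (1.31 ± 0.10) and PRDX4 (1.08 ± 0.27), an ER peroxiredoxin, changed most. Of 15 genes of the oligosaccharyltransferase and the glucosidases, which add and trim the N-glycan, 10 rose and none fell (median 0.65), with OSTC at 239 ± 18.02 CPM in siMK5 and 71.4 ± 2.74 CPM in siCon (1.74 ± 0.10) and MOGS, glucosidase I, at 242 ± 4.89 CPM in siMK5 and 83.9 ± 8.16 CPM in siCon (1.53 ± 0.11).

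Of 22 degradation partners, 7 rose and 3 fell (median 0.24), beside 22.5% and 23.7% of all genes tested. ERLEC1, a lectin related to OS9, rose (1.51 ± 0.10), as did SELENOS, which recruits the p97 ATPase (1.39 ± 0.10), while ERLIN2, a membrane adaptor of degradation, and UBE2G2, a ubiquitin-conjugating enzyme, fell (−1.62 ± 0.30 and −0.48 ± 0.13). Of 18 genes of targeting and insertion, 8 rose and 4 fell (median 0.31). SRPRA, the receptor of the signal recognition particle, was at 491 ± 13.4 CPM in siMK5 and 184 ± 79.8 CPM in siCon (1.42 ± 0.28), and SRP19 rose by 1.40 ± 0.37. TRAM2, a translocon-associated protein tied to collagen synthesis, was at 438 ± 26.4 CPM in siMK5 and 1361 ± 478 CPM in siCon (−1.63 ± 0.24), and WRB, a receptor for tail-anchored proteins, fell (−1.27 ± 0.18). Of 10 genes of the ER membrane complex, an insertase, 4 rose and 1 fell (median 0.12), with EMC6 (1.58 ± 0.41, at 0.938 ± 0.233 CPM in siMK5 and 0.308 ± 0.149 CPM in siCon) and EMC7 (0.65 ± 0.15) up and MMGT1 (−0.40 ± 0.14) down. EdgeR adjusted p of the 18 genes named from these lists lay between 0.000201 for OSTC and 0.0498 for MMGT1. Some of these calls, with adjusted p closer to the threshold, were lost when 1 of several libraries was left out, although the direction stayed the same. PRDX4 did not pass without siMK5 replicate 1 or 3 (edgeR adjusted p from 0.0520 to 0.0539). SRP19 did not pass without any 1 siMK5 library (edgeR adjusted p from 0.0582 to 0.0622). UBE2G2 did not pass without any 1 library other than siCon replicate 1 (edgeR adjusted p from 0.0512 to 0.0801). MMGT1 did not pass without any 1 library other than siCon replicate 1 (edgeR adjusted p from 0.0601 to 0.141). EMC6 did not pass without siMK5 replicate 1, siMK5 replicate 2 or siCon replicate 2 (edgeR adjusted p from 0.0514 to 0.0649).

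Of 10 regulators of the response, 5 rose, 2 fell and 3 did not pass, where 22.5% of all genes tested rose and 23.7% fell. EIF2AK3, the sensor PERK, was at 76.95, 69.8 and 70.6 CPM in siMK5, against 20.99, 10.8 and 9.95 CPM in siCon (log2 fold change 2.38 ± 0.29, edgeR adjusted p = 0.00110). XBP1, the factor downstream of IRE1, was at 204, 177 and 174 CPM in siMK5 and 60.3, 37.6 and 32.6 CPM in siCon (log2 fold change 2.09 ± 0.24, edgeR adjusted p = 0.000883); gene counts do not show its splicing. ATF4 rose by 1.82 ± 0.23, DDIT3, which encodes CHOP, by 2.98 ± 0.25 and CREB3L2, an ATF6-related factor, by 1.18 ± 0.14 (edgeR adjusted p = 0.00125, 0.000343 and 0.00102). ATF6 was at 111, 113 and 119 CPM in siMK5 and 68.7, 102 and 101 CPM in siCon, with a log2 fold change of 0.34 ± 0.17. ERN1, which encodes IRE1, was at 4.05, 4.28 and 3.80 CPM in siMK5 and 3.75, 2.95 and 2.49 CPM in siCon. The groups did not overlap in either gene, but neither passed (edgeR adjusted p = 0.137 and 0.173). MBTPS1, the protease that first cuts ATF6, did not pass (0.49 ± 0.21, edgeR adjusted p = 0.0979), while MBTPS2, which makes the second cut, and ATF6B, the paralog of ATF6, fell, with log2 fold changes of −0.46 ± 0.12 and −0.68 ± 0.20 (edgeR adjusted p = 0.0216 and 0.0293). The falls did not pass without siMK5 replicate 2 or 3, and further without siMK5 replicate 1 for MBTPS2 (edgeR adjusted p from 0.0696 to 0.0868) and without siCon replicate 2 or 3 for ATF6B (edgeR adjusted p from 0.0503 to 0.0735). ERN1 and MBTPS1 passed without siCon replicate 1 (0.58 and 0.28, edgeR adjusted p = 0.0220 and 0.00781), MBTPS1 with a smaller change. The control spread of that fit came from replicates 2 and 3 alone.

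**Figure D5:**
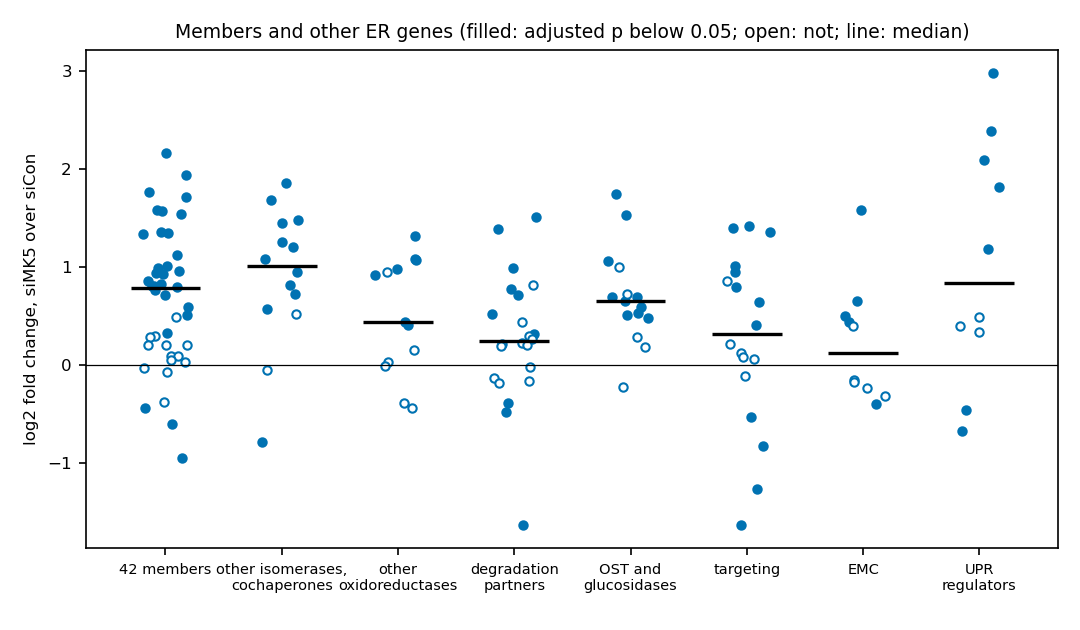
Log2 fold change (siMK5 over siCon, vertical axis) of each tested gene among the 42 members and in 7 lists of other ER genes (horizontal axis), with a line at each median. Filled points passed at adjusted p below 0.05. The medians lie at 0.78 for the members and 1.01 for other isomerases and cochaperones, and at 0.12 for the ER membrane complex (EMC).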

How the data were processed

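RNA-seq of 6 libraries (3 siMK5, 3 siCon) is described. Per the labels' protocols, libraries came from total RNA with the TruSeq V2 kit. HTSeq 0.9.1, TopHat2 2.1.1, Trimmomatic 0.36, FastQC and the GRCh37 build appear in the submitters' processing notes; neither annotation release nor strand setting is stated in the sources used here, so reads of overlapping genes cannot be told apart. The authors' table has CPM in its name, but the deposited values are whole-number counts with unequal library totals. No row stands for unassigned reads.

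Genes were kept with filterByExpr (least count 10, least total count 15) and tested with edgeR 4.0.16 in R 4.3.3 (TMM, quasi-likelihood, no block, two-sided). Adjusted p is Benjamini-Hochberg over 13431 genes, threshold 0.05; a standard error is the size of the log2 fold change over the square root of F. CPM used TMM-scaled totals. The common biological coefficient of variation was 21.2%. On simulated counts for this comparison (13431 genes), 30.3% of 2-fold and 91.9% of 4-fold changes were recovered. The simulation changed 100 genes at each size, whereas 46.2% of genes passed in the data, and the adjusted threshold depends on that share. These recoveries need not hold for the data, and a small change that did not pass may still exist. The alternatives were DESeq2 1.42.0 size factors, its Wald test, no filter, a replicate block, and libraries left out.

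Same-numbered libraries deviated together (correlations of deviations 0.258, 0.206 and 0.248 across genes), and by a rule that asks for over 0.1 in every pair the numbers were taken as pairs, a pairing read from the data and not from a label. Replicates 2 and 3 were hardly told apart (0.182 between siMK5 2 and siCon 3, 0.151 between siMK5 3 and siCon 2), while replicate 1 correlated negatively with both. Deviations were taken from each group's mean, so a replicate 1 apart in both groups also yields positive correlations among replicates 2 and 3. The rule thus cannot decide whether replicates 2 and 3 are paired by number. The fit reported has no block, and the block is an alternative. Replicates 2 and 3 differed by more than sampling noise (mean chi-square per gene 4.17 in siMK5 and 6.34 in siCon, 1 for noise alone) and were kept apart. Against replicate 1 the mean was at least 28.1 in siMK5 and 164 in siCon. Among genes of low count, replicates 2 and 3 gave means of 1.21 in siMK5 and 1.08 in siCon, near noise alone. Against replicate 1 these low-count means were at least 3.51 in siMK5 and 7.29 in siCon. Fits without replicate 1 of a group take that group's spread from replicates 2 and 3 alone.

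The members, lists and motifs were chosen with earlier results of these data known. Named genes are the members, MAPKAPK5, the 10 response regulators, and in each other list up to 2 passing genes with the largest rise and fall. Exon lengths and overlaps came from the GENCODE 29 basic set (GRCh38), for 42 members; promoters came from RefSeq. Pseudogene rows of members held at most 1.99% of the member's count.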

Additional observations from a re-analysis of the deposited data

How the results depend on the processing

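Of 462 checks of a single member under the 11 alternatives, 417 kept direction and side of the threshold, 18 lost the call, 14 gained it and 13 changed sign. The number of members that rose was 26 with DESeq2 size factors and with DESeq2's test, 24 without a filter and 25 with the replicate block; 4 fell with that block and 3 under the others. Over all genes, 2965 rose with DESeq2 size factors, 3242 with DESeq2's test, 2908 without a filter and 3154 with the block, of 13431, 15768, 22525 and 13431 tested. Leaving out single libraries gave 23 to 30 rises, 2 to 4 falls, and medians from 0.74 to 0.78. Over all genes it gave 2064 to 4455 rises and 2103 to 4419 falls, of 13642 to 13774 tested, the fewest without siMK5 replicate 2. Without replicate 1 of both groups, 5195 genes rose and 5177 fell, of 13690 tested. The members that passed in addition were SSR3, EDEM1, SSR4, SPCS1, SPCS2, PDIA6, SEC61A1 and PDIA3. Among members the block changed the calls of CANX and PDIA3 only.

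Sign changes occurred in 5 members that did not pass. With single libraries left out, the log2 fold change ranged over −0.38 to 0.50 for DERL3, −0.0252 to 0.17 for EDEM2, −0.12 to 0.17 for DNAJC10, −0.0764 to 0.0450 for SSR1 and −0.13 to 0.0207 for DERL2. Without replicate 1 of both groups it was −0.000264 for DNAJC10, 0.0829 for SSR1 and 0.0252 for DERL2, and DERL3 gave −0.00111 with DESeq2. The cause was not tested. Among the other named genes, MMGT1 lost its call with the block (edgeR adjusted p = 0.0940), DESeq2 size factors and no filter, and ATF6 passed without replicate 1 of both groups. DERL3 had a mean of 17.8 counts per library.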
